A study of Mus musculus with 6 samples.

Results

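The Slit ligands and their Robo receptors were examined as 7 genes (Slit1, Slit2, Slit3, Robo1, Robo2, Robo3 and Robo4) of the 22623 genes listed in every count matrix. Each symbol was taken by name and occurred in 1 row of each matrix, so 3 ligands and 4 receptors were described across the nuclei of subcutaneous tumors. The tumors were grown from TC1 cells, a mouse lung tumor line, in mice carrying a conditional allele of MCT2 (Slc16a7, a transporter of pyruvate and lactate) and a tamoxifen-inducible Cre. At 8 weeks of age the mice received tamoxifen for 5 consecutive days (KO) or vehicle without tamoxifen (CO), TC1 cells were injected 2 days later, and tumors grew for 24 days. Each group held 3 single-nucleus libraries, and the question was how the cells of CO and KO tumors differ. Both groups carried the same alleles, so tamoxifen itself differed between them along with the deletion, and the injected TC1 cells did not come from these mice. Some libraries, which the labels do not name, had extra washes of the nuclei against free RNA. The labels give the tissue as lung although the tumors were subcutaneous. The libraries of a group are described in the study's methods as biological replicates, and p-values measure the spread between them.

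Slit proteins are large secreted ligands that bind Robo receptors on neighbouring cells and are best known for repelling growing axons. Outside the nervous system the pathway acts on cell migration, and Robo4 is a receptor characteristic of blood vessel endothelium. Heparan sulfate proteoglycans such as glypicans assist Slit binding, and srGAP proteins carry the signal from the receptor to the actin cytoskeleton.

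The 17514 nuclei kept (7660 CO, 9854 KO) came from 18865 barcodes, and those kept held 7832625 to 16951665 UMIs (unique transcript molecules) per library. Clusters, made without the 7 genes, were named from marker genes as tumor-like (9033 nuclei), macrophage-like (6043), T/NK-like (671), endothelial-like (183), fibroblast-like (120) and adipocyte-like (64), with 1118 nuclei left unnamed and the rest in 3 smaller classes. These names were rebuilt here and may differ from those of the study. The cluster led by Pde10a, Frmd5 and Gpm6b is counted here as tumor-like, while the study named a cluster headed by these genes fibroblasts. Endothelial-like nuclei numbered 12 to 74 per library, fibroblast-like nuclei 8 to 34 and adipocyte-like nuclei 10 to 12, so those classes were pooled over libraries where counts were low. The endothelial-like and fibroblast-like clusters had every listed marker of their own class, but the summed level of the 11 tumor-like markers in them was 4745 to 11761 CPM (UMIs of a gene per 1000000 UMIs of the class) and 5020 to 9493 respectively, against 8605 to 15551 in tumor-like nuclei. Among those markers, Mecom was at 73.7% to 109% of its tumor-like level in endothelial-like nuclei, while Hmga2 was at 19.8% to 70.5%. How much of the Mecom level came from tumor RNA was not tested. Of the barcode sequences, 61 occurred in more than 1 library, and 164 kept nuclei carried one. Slc16a7, the targeted gene, did not separate the libraries labelled KO from those labelled CO. In macrophage-like nuclei it had 93.8, 94.1 and 171 scaled CPM (CPM after edgeR's TMM scaling between libraries) in CO and 118, 149 and 159 in KO (edgeR quasi-likelihood, log2 fold change 0.26, SE 0.28, adjusted p = 0.818). These counts do not show which exons were read, and reads outside the deleted part check nothing.

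The starts of 3 members are shown because each had its highest observed pooled level in a different class: Slit2 in tumor-like, Slit3 in adipocyte-like and Robo4 in endothelial-like nuclei. Each runs from 250 bases before to 50 bases after the RefSeq start (GRCm38.p6, plus strand, 5′ to 3′), with CG dinucleotides in capitals.
Slit2, chr5:47982905-47983204: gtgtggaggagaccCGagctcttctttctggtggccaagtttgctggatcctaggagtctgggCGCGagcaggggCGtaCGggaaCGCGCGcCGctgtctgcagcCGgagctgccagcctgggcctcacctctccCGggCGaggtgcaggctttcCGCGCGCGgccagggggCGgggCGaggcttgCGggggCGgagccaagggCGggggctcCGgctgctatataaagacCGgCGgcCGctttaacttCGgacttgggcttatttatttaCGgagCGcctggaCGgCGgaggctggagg
Slit3, chr11:35121206-35121505: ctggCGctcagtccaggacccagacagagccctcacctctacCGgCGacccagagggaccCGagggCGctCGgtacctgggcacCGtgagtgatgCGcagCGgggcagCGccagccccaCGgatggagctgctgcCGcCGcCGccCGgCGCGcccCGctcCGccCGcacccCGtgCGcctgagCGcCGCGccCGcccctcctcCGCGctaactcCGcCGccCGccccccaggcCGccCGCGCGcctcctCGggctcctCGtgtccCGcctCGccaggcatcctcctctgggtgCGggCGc
Robo4, chr9:37401722-37402021: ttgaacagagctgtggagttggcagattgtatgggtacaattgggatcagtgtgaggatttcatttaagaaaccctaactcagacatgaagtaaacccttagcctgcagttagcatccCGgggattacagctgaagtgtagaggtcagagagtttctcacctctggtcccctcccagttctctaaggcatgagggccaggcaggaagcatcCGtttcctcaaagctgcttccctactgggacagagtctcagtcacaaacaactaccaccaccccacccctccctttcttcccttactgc
The Slit2 start held 30 CG dinucleotides and the Slit3 start 41, numbers reached by 11.7% and 3.46% of the 32851 starts of this length in the table. The Robo4 start held 2, and 23.3% of starts held as few or fewer. The motif TATAAA, searched on both strands, was present in the Slit2 window and in neither of the others, and 13.6% of all starts contained it. Of the 7 members, 6 had an entry. In the annotation (GRCm38) Slit2 lies on chr5:47983138-48307733, Slit3 on chr11:35121224-35708507, Slit1 on chr19:41600257-41743665, Robo1 on chr16:72308306-73046095, Robo2 on chr16:73891839-74411825, Robo3 on chr9:37415669-37433246 and Robo4 on chr9:37401897-37415115. Annotated exons made up 1.03% of the span of Slit3 and 40.1% of that of Robo4, and levels are therefore not compared between members.

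Slit2 was a transcript of the tumor-like nuclei. It was seen in 94.5% of them and they held 85.9% of its 341436 UMIs, with 51.6% of the nuclei. The tumor-like nuclei were deeper, at a median of 1613 to 7541 UMIs per library against 950 to 1100.5 in macrophage-like nuclei. Shares of UMIs therefore follow depth as well as level. Pooled, Slit2 was at 4864 CPM in tumor-like nuclei and 4279 in all nuclei, which include them. The tumor-like level in CO was 3322, 3682 and 6077 CPM in replicates 1 to 3, and in KO it was 2924, 7760 and 6230. The 2 groups overlapped, with KO replicate 1 lowest and KO replicate 2 highest of the 6. At a fixed depth of 1000 UMIs per nucleus, the expected share of tumor-like nuclei with a Slit2 UMI averaged 86.2% ± 5.22 (SD) over the CO and 87.5% ± 8.94 over the KO libraries, 3 of each, and KO was 1.24 points higher (two-sided exact permutation p = 0.9, where 0.1 is the smallest p that 3 against 3 libraries can give). Nuclei under 1000 UMIs were left out, 27 to 89 per library except 551 in KO replicate 3. Without thinning the shares were 96.3% ± 0.455 and 93.0% ± 6.14. The 3 unnamed clusters held a further 11.2% of the Slit2 UMIs, at a pooled level of 4280 CPM.

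All tumor-like clusters had Slit2, from 1979 CPM in the cluster led by Atf3, Ppp1r15a and Ier2 (395 nuclei, early stress response genes) to 6857 in the cluster led by Pde10a, Frmd5 and Gpm6b (1929 nuclei). The latter was above the largest tumor-like cluster, led by Lingo2, Il34 and Gpc6 (2095 nuclei, 4897 CPM), in each of the 6 libraries, at 5018 against 3320 in CO replicate 1 and 10014 against 7419 in KO replicate 2. Over the 21 clusters, the genes whose log2 levels were most like Slit2 were Adgrl3 (Pearson r = 0.990), a receptor for teneurins and FLRT proteins, Rorb (r = 0.981), a nuclear receptor, and Fbn2 (r = 0.973), a microfibril protein. The clusters share libraries and differ in depth, so these values describe the pattern only.

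Macrophage-like nuclei also carried Slit2 UMIs, at a level near that of other tumor genes found in them. Their Slit2 level was 216, 159 and 351 CPM in CO and 151, 1213 and 893 in KO, that is 4.32% to 15.6% of the level in the tumor-like nuclei of the same library. A carried-over estimate was made from 18 genes listed as tumor genes, 16 of which had enough UMIs, as the median of the level in macrophage-like nuclei relative to tumor-like nuclei, multiplied by the tumor-like Slit2 level. That median was 6.28% to 19.7%, and Slit2 was below it in all 6 libraries, at 0.553 to 0.823 of the estimate. The estimate rests on a list that was not all specific: 5 listed genes (Crabp1, Igf2bp3, Msln, Pthlh and Rnf150) were above 30% of their tumor-like level in every library in which they were measured. Without those 5, a choice made after their values were seen, the median was 4.81% to 16.4% and Slit2 was at 0.688 to 0.977 of the estimate. Adgrl3 alone, at 5.01% to 16.0%, ran close to Slit2 in each library. It was also the gene most like Slit2 over the clusters, the macrophage-like ones included, so its closeness there is not a separate check. No macrophage-like Slit2 signal above the carried-over estimate was therefore measured in any library with either list.

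**Figure D1:**
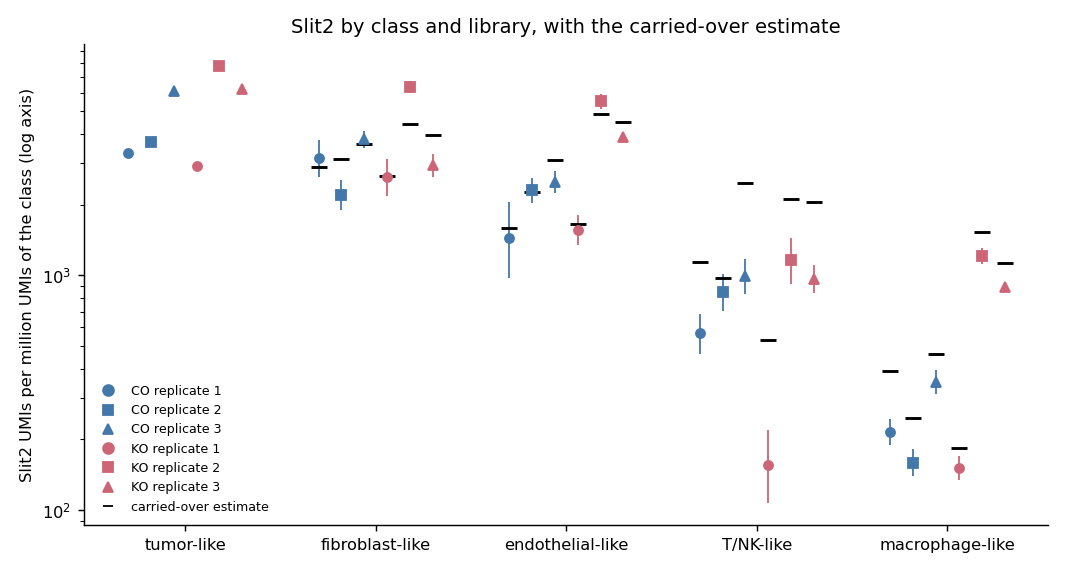
Slit2 in CPM (log axis) for 5 classes, 1 point per library with its exact Poisson 95% interval; black bars are the estimate of Slit2 carried over from tumor-like and macrophage-like nuclei. Tumor-like nuclei sit at 2924 to 7760, and in macrophage-like nuclei every point lies under its bar.

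**Figure D2:**
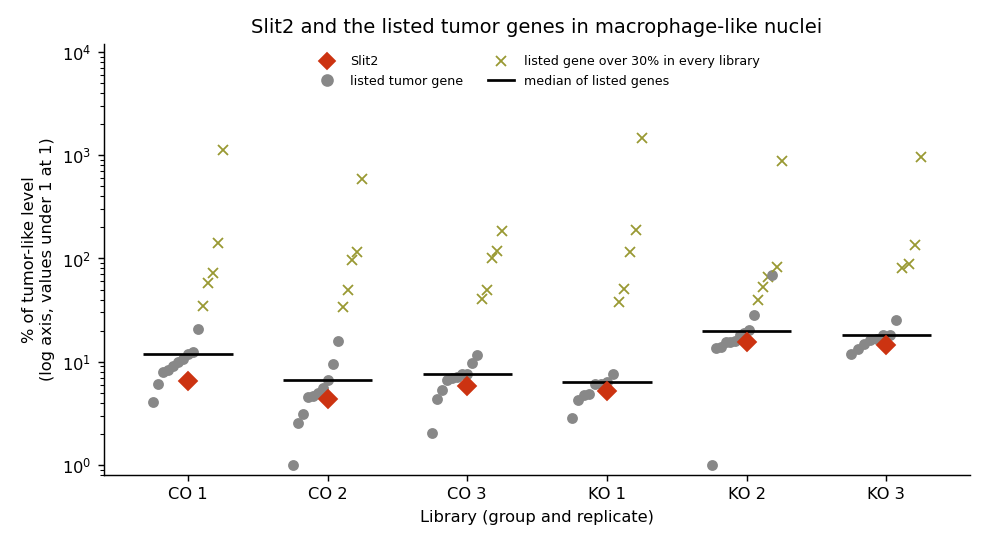
Level in macrophage-like nuclei as a percentage of the tumor-like level (log axis), by library, for the listed tumor genes and for Slit2 (diamonds); the black line is the median of the listed genes. Slit2 lies between 4.32% and 15.6%, under the line in all 6 libraries, and the 5 crossed genes lie above 30%.

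The share of nuclei with a Slit2 UMI was likewise highest in KO replicates 2 and 3. At 1000 UMIs per nucleus it came to 9.77%, 10.2% and 21.8% of macrophage-like nuclei in CO and 11.2%, 61.0% and 49.6% in KO. In T/NK-like nuclei, lymphocytes set beside them, the CO libraries had 17.1%, 15.5% and 28.4% and the KO libraries 8.78%, 49.1% and 48.7%. Without thinning the shares were 11.2% to 74.9% and 14.3% to 64.4%, at median depths of 950 to 1100.5 and 832 to 1238 UMIs per nucleus. The libraries with high shares in one class had high shares in the other, and Slit2 in T/NK-like nuclei was below its own carried-over estimate in all 6 libraries (156 to 1161 CPM).

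Endothelial-like and fibroblast-like nuclei as clustered had much Slit2, but most of it sat in nuclei that also held tumor genes. Their pooled levels were 3379 and 3969.5 CPM, with the endothelial-like level at 41.2% to 71.0% of the tumor-like level and the listed tumor genes at a median of 47.4% to 71.3%. That list includes Mecom, which was at 73.7% to 109% in endothelial-like nuclei, above the highest of these medians. Slit2 was above its carried-over estimate in 2 of 6 libraries for endothelial-like nuclei and in 3 of 6 for fibroblast-like nuclei. Nuclei were then separated by the summed level of 4 tumor genes (Etv4, Hmga2, Igf2bp1 and Igf2bp2, chosen after their values were seen) at 10% of the tumor-like median. In the 80 endothelial-like nuclei poor in those genes Slit2 had 42 UMIs (229 CPM, 95% interval 165 to 310), against 3062 UMIs (4164 CPM, 4018 to 4314) in the other 103. In the 49 fibroblast-like nuclei poor in them it was 940 CPM (768 to 1139), against 4693 (4498 to 4895) in the other 71. The poor nuclei were also the shallower ones, with a median of 1100.5 against 2633 UMIs in the endothelial-like and 2216 against 2773 in the fibroblast-like class, and the part of depth was not tested. The 223 tumor-like nuclei poor in the same genes, at a median of 906 UMIs, still had Slit2 at 3199 CPM. By comparison, macrophage-like and T/NK-like nuclei poor in the same genes had Slit2 at 244 and 279 CPM. The endothelial-like value lay near these and the fibroblast-like value above them, while all 4 were below the tumor-like level. The intervals here and below are exact Poisson intervals and cover counting error only.

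Slit3 was found at its highest levels in adipocyte-like and fibroblast-like nuclei. In adipocyte-like nuclei it had 188 UMIs in 93.8% of 64 nuclei, 3223 CPM when pooled (95% interval 2778 to 3718) and 2249 to 3895 over the 6 libraries. The carried-over estimate was 0 for every member in these few shallow nuclei and is not informative there: the tumor-like markers still summed to 113 to 900 CPM in them. These nuclei had 9 Slit2 UMIs in all. In fibroblast-like nuclei Slit3 was 664, 1135 and 1880 CPM in CO and 286, 1180 and 4311 in KO, 77.5% of nuclei had a UMI, and the 1055 UMIs compared with 26.3 estimated as carried over. The fibroblast-like libraries overlapped between groups and rested on 8 to 34 nuclei each. The fibroblast-like nuclei poor in tumor genes had Slit3 at 4021 CPM (3656 to 4412) and the others 1316 (1214 to 1425), the opposite order to Slit2.

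Tumor-like nuclei had less Slit3 per UMI but, being many and deep, held 64.2% of its UMIs. Their level was 32.6, 43.5 and 122 CPM in CO and 34.7, 71.2 and 57.3 in KO. Of those UMIs 73.4% came from the cluster led by Pde10a, Frmd5 and Gpm6b, at 213 CPM and with a UMI in 27.8% of its nuclei, while the other tumor-like clusters had 10.2 to 26.0. That cluster was at 151 to 271 in all 6 libraries. The study gave the name fibroblasts to a cluster whose top markers begin with the same genes. The class of these Slit3 UMIs therefore depends on the naming. Named tumor-like here, this cluster had 7 of the 11 tumor-like markers by the naming rule. The 9 fibroblast markers summed to 2646 CPM in it and to 701 to 1067 in the other tumor-like clusters. Of that sum Pdgfra gave 1250 CPM. Dcn was at 51.9 CPM in it and 6.30 to 20.9 in the others, and Col1a1 at 27.9 against 3.79 to 11.8. Robo1, a leading gene of the fibroblast-like cluster but not a listed marker, had 5 UMIs there. The part of fibroblast RNA in this level was not tested. Endothelial-like nuclei had 58 Slit3 UMIs against 37.0 estimated as carried over, and Slit3 was above its estimate in 5 of 6 libraries, KO replicate 3 being the exception. That estimate takes only tumor-like and macrophage-like nuclei as sources. It leaves out fibroblast-like and adipocyte-like nuclei, which had the highest Slit3, so it cannot show whether these UMIs were endothelial. The part of RNA from those classes was not tested. The endothelial-like nuclei poor in tumor genes held 35 of these UMIs, at 191 CPM (133 to 266), and the others were at 31.3 CPM (19.8 to 46.9). Genes most like Slit3 over the 21 clusters were Bmper (r = 0.928), a secreted regulator of BMP signaling, Ccdc80 (r = 0.903) and Trabd2b (r = 0.900).

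Slit1 was a rare transcript with its highest observed level in macrophage-like nuclei. It had 239 UMIs in all, 113 of them in macrophage-like nuclei, at 11.01, 12.7 and 15.7 CPM in CO and 13.7, 23.8 and 17.0 in KO. The CO libraries had 1.498, 1.36 and 0.597 CPM in tumor-like nuclei and the KO libraries 2.33, 1.55 and 2.86, so the macrophage-like level was higher in 6 of 6 libraries and 1.78 of its 113 UMIs were estimated as carried over. A Slit1 UMI was seen in 1.65% of macrophage-like nuclei. Arhgap19, a gene that lies upstream on the same strand, was also higher in macrophage-like nuclei (38.7 to 61.5 CPM) than in tumor-like nuclei (13.6 to 20.05), and its part in the Slit1 count was not tested. Endothelial-like nuclei had no Slit1 UMI, which allows up to 3.27 CPM (3 counts over the class; the exact Poisson limit is 4.02). The dendritic-like, plasmacytoid dendritic-like, skeletal muscle-like and adipocyte-like classes had none either, but allow up to 19.3 to 51.4 CPM, above the macrophage-like level.

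**Figure D3:**
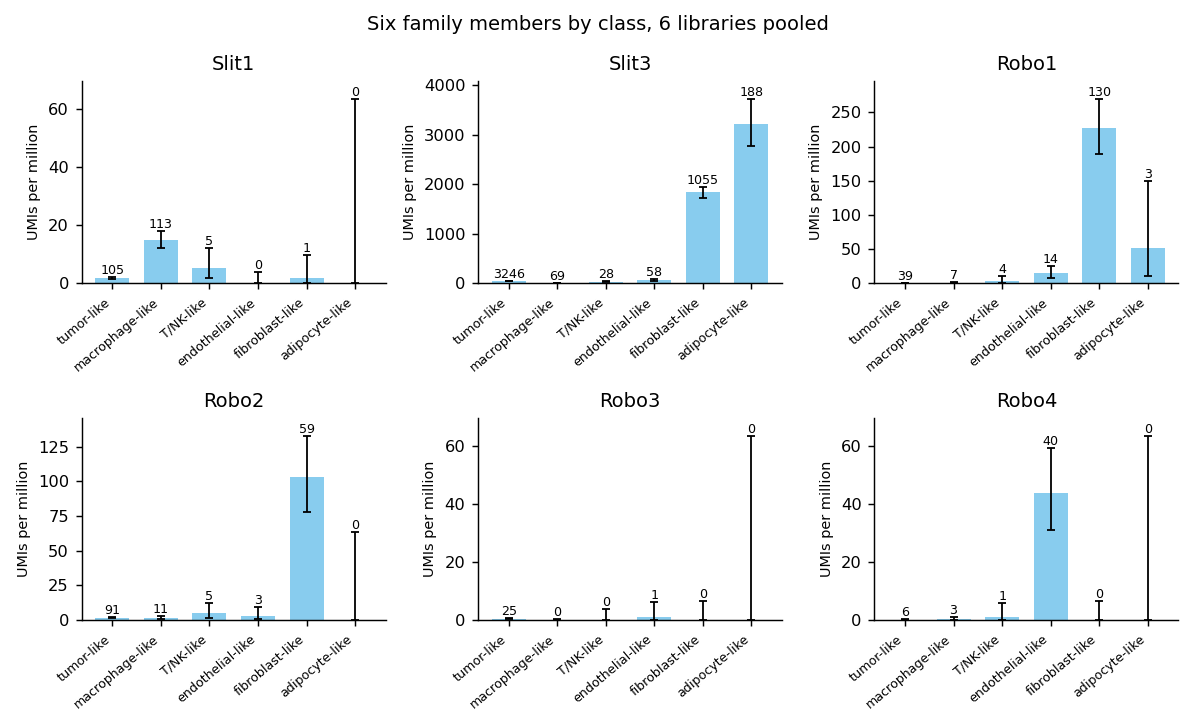
Pooled level in CPM (bars, from 0) of the 6 members other than Slit2 in 6 classes, with exact Poisson 95% intervals and the number of UMIs above each. By member, the highest observed level is that of Slit3 in adipocyte-like nuclei (3223, with 1838 in fibroblast-like), and of Robo1 (226) and Robo2 (103) in fibroblast-like nuclei. For Robo2, 54 of those 59 UMIs came from KO replicate 2. Robo4 is highest in endothelial-like (43.5) and Slit1 in macrophage-like nuclei (14.9). Robo3 is highest in endothelial-like nuclei (1.09), from 1 UMI.

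The receptors had few UMIs, and Robo1 and Robo4 had their highest observed levels in small stromal classes. Robo1, which binds all Slits, had 201 UMIs, of which 130 were in the 120 fibroblast-like nuclei, and it was among the leading genes of that cluster. Its fibroblast-like level was 25.5, 61.0 and 229 CPM in CO and 110, 387 and 236 in KO, with a UMI in 39.2% of nuclei and 0.283 UMIs estimated as carried over. Adipocyte-like nuclei had 51.4 CPM from 3 UMIs (95% interval 10.6 to 150.3), and the level was 15.2 CPM in endothelial-like nuclei (14 UMIs), 0.921 in macrophage-like and 0.647 in tumor-like nuclei. The 14 endothelial-like UMIs lay in 5 nuclei. KO replicate 2 held 7 of these UMIs and CO replicate 3 held 5. The fibroblast-like nuclei poor in tumor genes had 488 CPM (367 to 637) and the others 164 (129 to 205).

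Robo2, a close relative of Robo1, had 187 UMIs. In fibroblast-like nuclei it had 59 UMIs, 103 CPM when pooled, but 54 of them came from KO replicate 2, 5 from CO replicate 3 and none from the other 4 libraries. The level therefore rested on KO replicate 2, since the other 5 libraries had 5 UMIs between them. Tumor-like nuclei had 91 Robo2 UMIs, at 1.41, 1.95 and 3.18 CPM in CO and 1.21, 0.814 and 1.71 in KO.

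Robo4, the endothelial receptor, had 50 UMIs, and 40 of them lay in the 183 endothelial-like nuclei. Its level there was 47.9, 27.0 and 22.1 CPM in CO and 52.5, 68.9 and 44.3 in KO, resting on 1 to 18 UMIs per library. It was seen in every library, and fibroblast-like nuclei had none, which allows up to 5.23 CPM (3 counts over the class; the exact Poisson limit is 6.43). Adipocyte-like nuclei also had none, but allow up to 51.4 CPM, above the pooled endothelial-like level of 43.5. The endothelial-like nuclei poor in tumor genes had 125 CPM (79.5 to 188) and the others 23.1 (13.5 to 37.0). Robo3, which in the spinal cord lets commissural axons cross the midline, had 29 UMIs in 17514 nuclei, 25 of them in tumor-like nuclei at 0.415 CPM, and none in macrophage-like nuclei, which allows up to 0.395 CPM (3 counts over the class; the exact Poisson limit is 0.485).

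**Figure D4:**
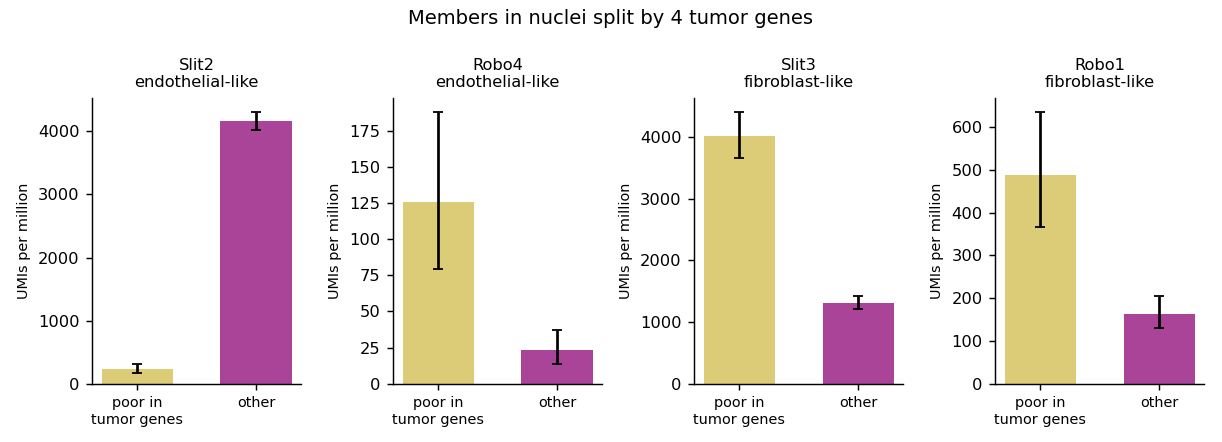
Level in CPM (bars from 0, exact Poisson 95% intervals) of Slit2 and Robo4 in endothelial-like nuclei and of Slit3 and Robo1 in fibroblast-like nuclei, for nuclei poor in 4 tumor genes and for the others. Slit2 is 229 in poor endothelial-like nuclei and 4164 in the others, while Robo4, Slit3 and Robo1 are higher in the poor nuclei.

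In the class with most Slit2, few nuclei had a receptor UMI. Tumor-like nuclei had Slit2 in 94.5% of nuclei, and the shares with Robo1, Robo2, Robo3 and Robo4 were 0.432%, 0.985%, 0.266% and 0.0664%, though such shares also depend on how well each transcript was captured. Fibroblast-like nuclei held the Slit3 ligand together with Robo1. Endothelial-like nuclei held Robo4, and macrophage-like nuclei had 7 Robo1, 11 Robo2 and 3 Robo4 UMIs in 6043 nuclei.

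KO and CO libraries were compared on counts summed per library, in all nuclei, in tumor-like nuclei and in macrophage-like nuclei, by edgeR's quasi-likelihood test with Benjamini-Hochberg adjustment over all genes tested. None of the members passed (absolute log2 fold change of at least 0.58 and adjusted p of at most 0.05) in any of the 3 fits, against 0% of the 12805 genes tested in tumor-like, 0% of 10011 in macrophage-like and 0% of 13665 in all nuclei. At an unadjusted p under 0.05 these fits had 897, 557 and 667 genes, and DESeq2 called 29, 5 and 12. Only 4 members in tumor-like nuclei (Slit1, Slit2, Slit3 and Robo2) and 3 in macrophage-like nuclei (Slit1, Slit2 and Slit3) passed the filter on low counts.

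In tumor-like nuclei Slit2 was at 4248 ± 1377 scaled CPM in CO and 5853 ± 2778 in KO (SD, n = 3). The log2 fold change of 0.46 had an SE of 0.48 and an adjusted p of 0.635 by edgeR. The libraries of one group lay on both sides of the other, and the difference was within their spread. The 3 libraries with the lowest Slit2 (KO replicate 1 and CO replicates 1 and 2) had a median mitochondrial share of 3.98% to 6.76% of UMIs per nucleus, and the 3 highest had 0.890% to 3.80%. The part of that property in the Slit2 level was not tested. Slit3 was at 64.0 ± 46.1 in CO and 56.3 ± 21.5 in KO (log2 fold change -0.17, SE 0.51, edgeR adjusted p = 0.865). Its value was positive without CO replicate 3, at 0.59, and without KO replicate 1, at 0.10. Slit1 was at 1.13 ± 0.491 in CO and 2.29 ± 0.599 in KO (log2 fold change 0.91, SE 0.42, adjusted p = 0.570). It was the 1 member of the 4 tested whose groups did not overlap, as was the case for 12.9% of all genes tested in tumor-like nuclei, and it rested on 3 to 29 UMIs per library. Robo2 was at 2.12 ± 0.843 in CO and 1.27 ± 0.428 in KO (log2 fold change -0.73, SE 0.44, adjusted p = 0.570).

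In macrophage-like nuclei the largest difference among members was that of Slit2, at 214, 159 and 360 scaled CPM in CO and 150, 1249 and 916 in KO. On the log2 scale KO was higher by 1.66 (SE 0.65, edgeR adjusted p = 0.781), with KO replicate 1 below every CO library and the other two KO libraries above every CO library. Without KO replicate 1 the log2 fold change was 2.17 and passed (edgeR adjusted p = 0.00034), in a fit that then called 1915 genes. The listed tumor genes moved with it: their median in macrophage-like nuclei was 6.68% to 11.7% of the tumor-like level in CO, 6.28% in KO replicate 1, and 19.7% and 18.0% in KO replicates 2 and 3. Relative to the carried-over estimate, Slit2 was at 0.553, 0.647 and 0.757 in CO and 0.823, 0.794 and 0.795 in KO, a difference of 0.31 on the log2 scale (exact permutation p = 0.1, the smallest possible). Every library remained below its estimate. Without the 5 less specific tumor genes the difference was 0.22 (exact permutation p = 0.2) and the groups overlapped.

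The difference between the 2 classes in their KO to CO change was fitted with the library as a block. For Slit2 the change was higher in macrophage-like than in tumor-like nuclei by 0.99 on the log2 scale (SE 0.40, edgeR adjusted p = 0.605). None of the 12250 genes passed in that fit (0%), while 16 passed with DESeq2 and 947 were under 0.05 before adjustment. The Slit2 difference passed without KO replicate 1 (1.51, edgeR adjusted p = 0.00406) and without the filter on low counts (0.80, edgeR adjusted p = 0.0307). Those fits called 295 and 189 genes respectively, so the calls were not particular to Slit2. Over the other alternatives the adjusted p was 0.414 to 0.967. Slit1 in macrophage-like nuclei was at 13.2 ± 2.66 in CO and 18.5 ± 5.53 in KO (log2 fold change 0.42, SE 0.35, edgeR adjusted p = 0.790), and Slit3 at 10.3 ± 10.6 and 9.73 ± 7.69 (log2 fold change -0.08, SE 1.04, adjusted p = 0.990). For none of the 3 ligands did the macrophage-like groups stand apart, which 11.7% of all genes tested there did.

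In all nuclei summed per library 5 members were tested, and the groups overlapped for each of them, beside 10.9% of all genes whose groups did not. Slit1 had a log2 fold change of 0.59 (SE 0.34), Slit2 0.49 (SE 0.50), Robo1 0.47 (SE 0.86), Robo2 0.23 (SE 0.60) and Slit3 0.02 (SE 0.59), with edgeR adjusted p of 0.670 to 0.989. The summed counts of such low genes moved with single libraries. Robo1 was at 0.743, 1.14 and 5.35 scaled CPM in CO and 1.05, 5.51 and 3.12 in KO, and its value was -0.18 without KO replicate 2. Robo2 without that library was at -0.49.

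**Figure D5:**
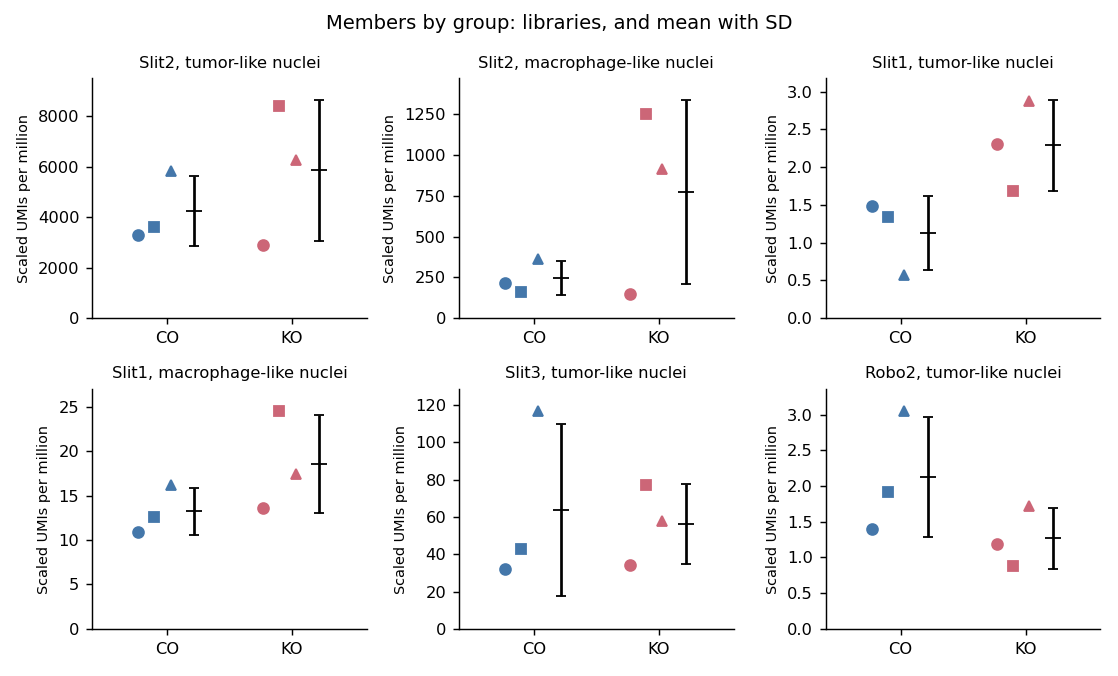
Scaled CPM (linear axes from 0) of Slit2, Slit1, Slit3 and Robo2 in CO (blue) and KO (red) libraries; circles, squares and triangles are replicates 1, 2 and 3, and black bars give the mean with SD. The groups overlap in every panel except Slit1 in tumor-like nuclei.

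The other genes of the pathway were taken from a list of 45 further ligands, co-receptors and output proteins. None passed in any fit. In tumor-like nuclei 44 were tested, of which 25 had a higher and 19 a lower value in KO (48.2% of all genes were higher), with a median log2 fold change of 0.13 beside -0.02 over all genes, and in 6 (13.6%) the groups did not overlap, near the 12.9% of all genes. At an unadjusted p under 0.05 there were 4 listed genes in tumor-like nuclei, beside 7.01% of all genes, and 2 in macrophage-like nuclei, beside 5.56%. In macrophage-like nuclei 38 were tested, 24 higher and 14 lower (50.1% of all genes were higher), with a median of 0.13 beside 0.00 and 2 whose groups did not overlap (5.26%, against 11.7% of all genes).

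Among the co-receptors, Gpc6, a glypican, had the highest fold change of the list in tumor-like nuclei, at 258 ± 9.83 scaled CPM in CO and 507 ± 137 in KO (log2 fold change 0.98, SE 0.24, edgeR adjusted p = 0.570, groups not overlapping). It was also the highest in macrophage-like nuclei, at 12.4 ± 2.24 and 50.7 ± 37.4 (log2 fold change 1.99, SE 0.73, adjusted p = 0.781). Those levels were far below the tumor-like ones, and Gpc6 was a leading gene of a tumor-like cluster. No carried-over estimate was made for the pathway genes. The part of tumor RNA in their macrophage-like values was not tested. Ext1, an enzyme that builds heparan sulfate chains, followed in tumor-like nuclei at 653 ± 171 and 1032 ± 357 (log2 fold change 0.66, adjusted p = 0.570). At the low end was Nell1, a secreted relative of the Robo3 ligand Nell2, at only 1.65 ± 0.252 scaled CPM in CO and 0.872 ± 0.0084 in KO. Its log2 fold change was -0.88 (edgeR adjusted p = 0.570, groups not overlapping). Unc5c, a netrin receptor, was next, at 26.1 ± 26.3 and 14.1 ± 8.32 (log2 fold change -0.86, edgeR adjusted p = 0.596). In macrophage-like nuclei Pak3, a kinase downstream of Rac and Cdc42, stood second at a log2 fold change of 1.47 (adjusted p = 0.781). Arhgap39 was lowest there at a log2 fold change of -0.41 (adjusted p = 0.781), next to Cap1, an actin regulator, at -0.30 (adjusted p = 0.791).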

How the data were processed

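Nuclei of 3 CO and 3 KO tumors were profiled by single-nucleus RNA sequencing. The authors deposited 1 filtered matrix of whole UMI counts per library, made with Cell Ranger 3.0.2 per the processing notes (the matrix headers name another version). Whether intronic reads were counted is not given in the sources used here. Nuclei with 100 to 7500 genes and at most 20% mitochondrial UMIs were kept, and doublets were removed by Scrublet score (scanpy 1.11.5) at 0.8% per 1000 barcodes. Clusters (Leiden, resolution 1, after a Harmony-type correction by library) were made without the 7 members and named from listed markers. Levels are CPM (UMIs per 1000000 UMIs of the class). Counts summed per library were tested with edgeR 4.0.16 (TMM, quasi-likelihood) in R 4.3.3, with Benjamini-Hochberg adjustment over all genes. Shares at fixed depth are exact expectations. Intervals are exact Poisson intervals at 95%. Empty droplets were not used, so the carried-over estimate covers free RNA and doublets together. Named were all members, the 3 genes most like each member of at least 500 UMIs, and the 2 highest and 2 lowest pathway genes per class. Members, lists and tests were chosen with earlier results of these data known. The edgeR step was run on simulated tumor-like counts with less spread between libraries than in these data. That run does not show which changes the fits here could detect. Same-numbered replicates were not treated as pairs.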

Additional observations from a re-analysis of the deposited data

How the results depend on the processing

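The members' fold changes rest on 3 libraries a group, and the receptors on too few UMIs for most fits. Of 170 fold changes of members under alternatives, 154 kept their direction, 16 reversed and 3 became calls, all of Slit2. Counts of genes called, 0 in each fit, became 12 in all, 29 in tumor-like and 5 in macrophage-like nuclei and 16 for the difference between classes with DESeq2, and 189 for that difference without the filter on low counts. Leaving out 1 library gave 0 to 2443 calls in tumor-like nuclei, 0 to 1915 in macrophage-like nuclei and 0 to 295 for the difference, all of the highest without KO replicate 1, and 0 in all nuclei. The replicate block gave 0 calls in each fit and moved macrophage-like Slit3 to 0.020 (log2). Deviations of same-numbered replicates correlated at 0.52, -0.31 and 0.40 in all nuclei. CO replicates 1 and 3 correlated best with the KO replicate of the same number, and CO replicate 2 with KO replicate 1 (0.38). Deviations from a mean of 3 libraries are tied to each other, so these values cannot decide whether the numbers pair the samples. The thinned Slit2 share reversed to -3.21 points when not thinned and ran from -2.06 to 6.32 points when 1 library was left out. Slit3 in all nuclei reversed to -0.19 with a stricter filter on nuclei. With 1 library left out, reversed log2 values lay within -0.31 to 0.83 (Slit3, all nuclei), -1.18 to 0.80 (Slit3, macrophage-like), -0.50 to 0.59 (Slit3, tumor-like), -0.93 to 0.70 (Slit3, difference), -0.18 to 1.76 (Robo1) and -0.49 to 0.79 (Robo2), and Slit2 in all nuclei reached -0.0029 without KO replicate 2. The KO minus CO difference in macrophage-like Slit2 over its carried-over estimate lay at 0.11 to 0.75 (log2) over the alternatives. Causes were not tested.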
